A study of Mus musculus with 6 samples.

Results

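Spermatid genes, the genes that build the sperm cell after the meiotic divisions of the male germ line, were examined in mouse oocytes with and without a functional Brwd1 gene. The 56 genes form a list of genes of postmeiotic sperm development, and each was represented by its single-symbol probe set with the highest mean over the 6 arrays. All 56 were found, among 19938 genes measured in this way. The samples were pools of 100 oocytes at the germinal vesicle stage, arrested before the first meiotic division, from B6/C3H mice. Replicates 1 to 3 of one group were wildtype, and the other 3 samples carried the Brwd1 mutation on both chromosomes. Females of both genotypes were 2 to 6 months old and had received 5 IU of equine chorionic gonadotropin, a hormone that drives follicle growth, 44 h before collection. Which stretch of Brwd1 the mutation hits is not stated in the labels. Neither is whether each pool had its own donor mice, so the p-values reflect only the spread between these pools, which may be technical. In pools, fewer RNA-holding cells and less RNA per cell cannot be told apart.

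In the testis, round spermatids switch on a large set of genes whose products replace histones, form the acrosome and assemble the flagellum. Transition proteins and then protamines compact the paternal chromatin, and the factors CREM and TBPL1 (also called TRF2) drive much of this programme. BRWD1 is a chromatin protein with bromodomains and WD repeats, and male mice without it fail in spermatid gene expression and sperm formation, which makes the same genes of interest in the other sex. Oocytes make no sperm structures, but several of these genes also have uses outside spermatids: ODF2 is a centriole protein, tektins are part of ordinary cilia, and TBPL1 belongs to the general transcription machinery.

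Values are log2 levels from Affymetrix mouse Gene ST arrays, background-corrected and brought to a common distribution by the submitters with RMA. A difference of 1 is a doubling, measured against the rest of that array. Probe sets of olfactory and vomeronasal receptors, genes with no known use in the oocyte, served as a guide to background. Their 95th percentile, over 1210 probe sets, lay between 4.41 and 4.54 in the 6 arrays and is called the guide here. Brightness also depends on the probes themselves, so a level places a gene against the guide and does not rank genes by RNA amount. Brwd1 itself was at 8.91, 9.08 and 8.98 in wildtype oocytes, against 4.41, 4.56 and 4.50 in mutant oocytes, so each sample matched its label. All 20 oocyte markers, among them Zp3, Gdf9 and Ooep, exceeded the guide in every array. Wildtype 3 lay away from the remaining 5 arrays along the second principal component, with 19.0% of the variance.

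Most spermatid genes lay in the range of the receptors. In all 6 arrays, 18 of 56 genes (32.1%) exceeded the guide, against 59.6% of all 19938 genes. A further 8 exceeded it in 1 to 5 arrays and 30 in none. The median level of the 56 genes was 4.22, against 5.22 for all genes and 3.14 for the receptors. Passing the guide is a low bar: of 40 genes of other tissues, such as those of liver, muscle, retina and pancreas, 19 (47.5%) passed it as well. Above the stricter 99th percentile of the receptors, at 5.55 to 5.83, 5 of the 56 genes remained in all arrays. The same 5, Txndc2, Odf2, Iqcf1, Prm2 and Tbpl1, were the ones above the 95th percentile of the genes of other tissues, at 5.72 to 5.94.

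**Figure D1:**
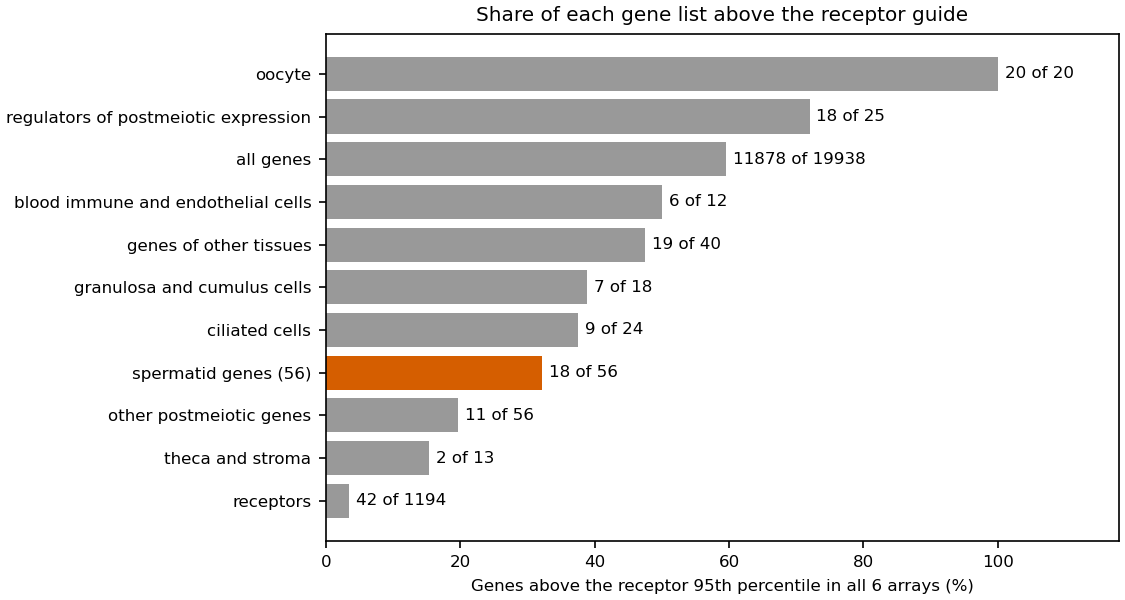
Horizontal bars show the percentage of genes in each list whose level exceeded the receptor 95th percentile in all 6 arrays, with the counts at the bar ends and the 56 spermatid genes in orange. The spermatid bar ends at 32.1%, below that of all genes at 59.6% and of genes of other tissues at 47.5%, and above that of the receptors at 3.52%.

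The 250 bases before and 50 bases after the annotated transcript start are shown for these 5 genes and for Prm1, the protamine neighbour that did not pass the guide. They show that the genes standing clear of the receptors belong to more than one promoter class. The sequences are from RefSeq, build GRCm38.p6, 5′ to 3′ on the strand of the gene. Capitals mark each CG dinucleotide, the site of DNA methylation, which is frequent in promoters of broadly used genes and rare in many tissue-restricted ones. Where a gene has several annotated starts, the first one listed is printed.
Prm1 (chr16:10796774-10797073, minus strand): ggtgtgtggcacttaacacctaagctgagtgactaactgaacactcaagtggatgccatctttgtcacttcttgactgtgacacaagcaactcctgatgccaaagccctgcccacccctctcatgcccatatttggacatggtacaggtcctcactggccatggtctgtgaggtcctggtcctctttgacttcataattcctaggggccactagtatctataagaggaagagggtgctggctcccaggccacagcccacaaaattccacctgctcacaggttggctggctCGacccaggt
Prm2 (chr16:10792056-10792355, minus strand): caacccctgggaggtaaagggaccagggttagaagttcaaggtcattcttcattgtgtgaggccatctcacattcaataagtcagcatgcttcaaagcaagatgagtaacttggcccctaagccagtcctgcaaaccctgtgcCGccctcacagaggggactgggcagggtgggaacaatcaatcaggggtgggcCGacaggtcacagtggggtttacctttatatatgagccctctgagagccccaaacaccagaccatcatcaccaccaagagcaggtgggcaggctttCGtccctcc
Txndc2 (chr17:65642155-65642454, minus strand): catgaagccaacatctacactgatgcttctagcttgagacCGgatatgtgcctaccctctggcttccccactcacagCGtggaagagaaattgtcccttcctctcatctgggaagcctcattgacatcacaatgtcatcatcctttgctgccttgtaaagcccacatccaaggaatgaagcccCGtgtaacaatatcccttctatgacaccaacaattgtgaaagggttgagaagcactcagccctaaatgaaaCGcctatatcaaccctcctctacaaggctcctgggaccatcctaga
Iqcf1 (chr9:106499717-106500016, plus strand): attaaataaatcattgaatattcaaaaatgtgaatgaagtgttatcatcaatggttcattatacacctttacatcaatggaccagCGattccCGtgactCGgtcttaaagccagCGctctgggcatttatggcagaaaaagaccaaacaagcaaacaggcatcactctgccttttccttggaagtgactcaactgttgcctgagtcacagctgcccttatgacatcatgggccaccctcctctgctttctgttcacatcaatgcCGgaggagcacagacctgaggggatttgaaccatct
Odf2 (chr2:29889470-29889769, plus strand): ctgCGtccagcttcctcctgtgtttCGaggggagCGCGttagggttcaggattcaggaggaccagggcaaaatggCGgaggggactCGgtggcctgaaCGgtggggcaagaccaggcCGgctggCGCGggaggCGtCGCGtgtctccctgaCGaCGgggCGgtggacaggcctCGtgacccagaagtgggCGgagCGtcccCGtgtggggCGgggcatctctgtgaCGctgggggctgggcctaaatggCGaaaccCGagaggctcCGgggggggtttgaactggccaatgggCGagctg
Tbpl1 (chr10:22731398-22731697, minus strand): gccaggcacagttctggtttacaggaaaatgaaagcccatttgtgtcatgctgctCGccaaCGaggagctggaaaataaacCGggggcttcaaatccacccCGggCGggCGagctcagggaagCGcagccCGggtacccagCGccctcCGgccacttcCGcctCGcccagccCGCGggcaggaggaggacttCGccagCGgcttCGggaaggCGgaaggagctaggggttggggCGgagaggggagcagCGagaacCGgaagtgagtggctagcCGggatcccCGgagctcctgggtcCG

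Odf2 held 26 CG dinucleotides in this window and Tbpl1 held 24, and both count as CpG-rich, with an observed-to-expected CpG ratio above 0.6 and more than 50% G and C. Txndc2 held 4, Iqcf1 held 5 and Prm2 held 3, so 3 of the 5 genes had CpG-poor promoters. Prm1 held 1. RefSeq gave promoters for 48 of the 56 genes, not for Odf1, Cabyr, Catsper1, Crem, Acr, Capza3, Oaz3 and Insl6. Of these 48, 10 (20.8%) had a CpG-rich start, against 35.8% of all 27025 genes with a promoter window. Among the members above the guide in all arrays the count was 5 of 16, namely Odf2, Tbpl1, Tekt2, Catsper2 and Tcp11. Among the others it was 5 of 32, namely Ropn1l, Tekt1, Meig1, Zpbp2 and Spata18, whose levels stayed near or under the guide with a promoter of the CpG-rich class.

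**Figure D2:**
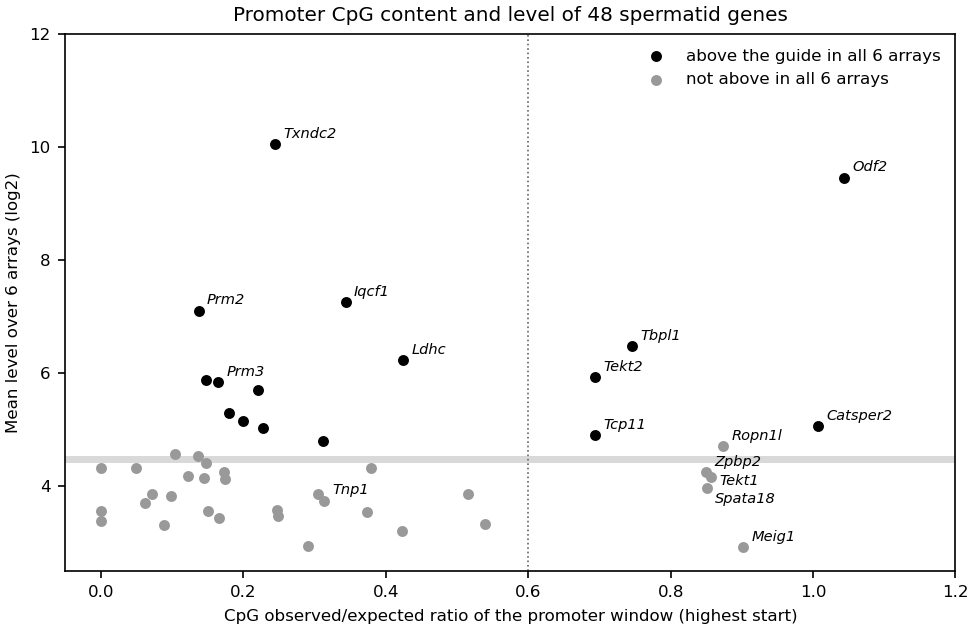
Each point is 1 of 48 spermatid genes with a RefSeq promoter, with the observed-to-expected CpG ratio of its start with the highest ratio on the horizontal axis and its mean log2 level over 6 arrays on the vertical axis. The grey band is the receptor 95th percentile and the dotted line the ratio of 0.6. Points above the band occur on both sides of the line, with Txndc2, Iqcf1 and Prm2 on the left and Odf2 and Tbpl1 on the right.

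CREM binds the cyclic AMP response element, and these windows were searched on both strands for its full form TGACGTCA and for the variant TGACTTCA. The full form was found in 1 of 48 genes, Izumo1, against 2.03% of all genes with a promoter. The variant was found in 4 of 48, against 1.79% of all genes: Prm1, where it begins 64 bases before the start, Tssk1, Tssk2 and Gsg1. The 2 motifs differ in 1 letter and cannot occupy the same bases. Of these 5 genes, Tssk2 and Gsg1 exceeded the guide in all arrays and Prm1 and Izumo1 in none.

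Proteins that compact sperm chromatin gave a split result. Prm2, the protamine made as a longer precursor and then processed, was at 6.80, 6.61 and 7.22 in wildtype oocytes, against 7.33, 7.40 and 7.25 in mutant oocytes. Every mutant value was higher than every wildtype value, with wildtype 3 just under the lowest mutant. Prm3, a small acidic relative encoded in the same cluster, was at 5.86, 5.70 and 5.62 in wildtype oocytes, against 5.79, 6.16 and 5.91 in mutant oocytes, and its groups overlapped. The main protamine Prm1 lay between 4.25 and 4.40 in the 6 arrays, Tnp2 between 4.07 and 4.22 and Tnp1 between 3.52 and 3.88, all under the guide. Tnp2, Prm3, Prm2 and Prm1 are direct neighbours on chromosome 16 in the RefSeq order, so within one cluster the probe sets of 2 genes exceeded the guide and those of the other 2 did not.

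The transcription factors of the programme also differed. Tbpl1 was at 6.73, 6.35 and 6.55 in wildtype oocytes, against 6.49, 6.36 and 6.39 in mutant oocytes, well above the guide in each and with overlapping groups. Crem lay between 3.84 and 4.13, under the guide in every array. Of 25 other regulators of postmeiotic expression that were measured, 18 exceeded the guide in all arrays, including Fhl5, a coactivator of CREM, at 5.88, 5.38 and 5.53 in wildtype oocytes, against 6.17, 5.83 and 6.30 in mutant oocytes. Gtf2a1, a general transcription factor, and the RNA-binding gene Ybx3 were at 11.19 and 10.40 on average.

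Genes of the flagellum and its sheaths made up 14 of the 56, and 5 of them exceeded the guide in all arrays. Odf2, named for the outer dense fibres and also a component of centriolar appendages, was at 9.51, 9.47 and 9.59 in wildtype oocytes, against 9.47, 9.37 and 9.33 in mutant oocytes. The groups met at 9.47, and the mean was 0.13 lower in the mutant (limma SE 0.07, adjusted p = 0.398). The fibre gene Odf1 was at 5.16, 5.26 and 5.24 in wildtype oocytes, against 5.50, 5.28 and 5.20 in mutant oocytes, and its groups overlapped. Cabyr, a calcium-binding protein of the fibrous sheath, lay between 5.17 and 5.55. Tekt4, which encodes a tektin of the axoneme, was at 5.79, 5.80 and 5.83 in wildtype oocytes, against 5.90, 5.91 and 6.01 in mutant oocytes, close together within each group and without overlap.

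Tekt2, another tektin, was at 5.66, 5.50 and 5.92 in wildtype oocytes, against 5.97, 5.95 and 6.56 in mutant oocytes. Mutant 3 stood above the rest, and the other mutant values were only just above wildtype 3. Tekt1 and Tekt5 stayed under the guide in every array, with means of 4.17 and 3.58. The fibrous sheath anchors Akap3 and Akap4, the mitochondrial capsule gene Smcp, the sheath gene Ropn1, the tail gene Spem1 and the manchette gene Meig1 were also under it throughout, with means from 2.92 for Meig1 to 4.15 for Ropn1. Ropn1l exceeded the guide in 5 arrays and ranged from 4.26 to 5.20 within the wildtype group alone.

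Tektins also occur in motile cilia, so markers of ciliated cells were set beside them. Of 24 such markers, 9 exceeded the guide in all arrays, and their mean level was 4.55 to 4.63 in wildtype oocytes, against 4.61 to 4.72 in mutant oocytes. The defining factor Foxj1 was at 4.10 to 4.26 and under the guide in every array, whereas Ccno, a marker of multiciliated cells, was at 11.00 to 11.16. Ccdc113, Rsph9 and Mcidas also exceeded the guide in all arrays. So did Dnah5, Dnah9, Drc1, Tppp3 and Cfap52, with means from 4.71 to 4.94. Ccdc113 had the smallest p-value of the list, with a difference of 0.32 (limma adjusted p = 0.282) and overlapping groups. Differences were positive in the mutant for 18 of the 24 markers and negative for 6, where 53.5% of all genes were positive. These counts use the deposited scaling alone, and such a balance depends on the scaling, as given below for the spermatid genes. An unadjusted limma p under 0.05 was found for 1 of the 24 markers, against 14.9% of all genes. The part of ciliated cells in the tektin levels was not tested beyond these values.

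Among sperm-specific enzymes of energy metabolism, only Ldhc exceeded the guide in all arrays. This lactate dehydrogenase subunit was at 6.29, 5.85 and 5.72 in wildtype oocytes, against 6.43, 6.27 and 6.81 in mutant oocytes. The groups overlapped, since wildtype 1 was above mutant 2. The glycolytic Pgk2 had a mean of 2.94, below the receptor median, and Gapdhs exceeded the guide in 1 array with a mean of 4.26.

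Catsper1 to Catsper4 encode the pore subunits of the calcium channel of the sperm tail, which needs all of them. Catsper2 was at 5.35, 5.29 and 5.16 in wildtype oocytes, against 4.89, 4.64 and 5.04 in mutant oocytes, above the guide in all and lower in every mutant. Catsper3 fell on both sides of the guide, at 4.44, 4.53 and 4.75 and at 4.49, 3.83 and 4.37. Catsper1 and Catsper4 did not exceed it in any array, with means of 3.80 and 4.18.

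Of 7 genes of the acrosome and of sperm-egg binding, 1 passed. Spaca4, a sperm surface protein, lay between 5.51 and 5.88, with overlapping groups. Zpbp2, which encodes an acrosomal protein that binds the zona pellucida, was at 4.56, 4.45 and 4.24 in wildtype oocytes, against 4.16, 3.98 and 4.10 in mutant oocytes, around and under the guide. The protease gene Acr, Acrv1, Spaca1, Zpbp and Izumo1, whose product binds its receptor on the egg, were under the guide in all arrays, with means from 3.21 to 3.85.

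The testis-specific serine kinases and the proteins of the sperm head skeleton lay mostly near or under the guide. Tssk2 was at 4.93, 4.61 and 5.32 in wildtype oocytes, against 4.98, 5.25 and 5.11 in mutant oocytes. Tssk1, its direct neighbour and close relative, exceeded the guide in 4 arrays with a mean of 4.56, and signal of such similar genes is uncertain. Tssk3 was at 4.29, 4.12 and 4.17 in wildtype oocytes, against 4.39, 4.48 and 4.46 in mutant oocytes, under the guide throughout, and Tssk6 had a mean of 3.86. The actin-related Actl7b lay between 5.00 and 5.35, Actl7a exceeded the guide in 4 arrays and Actl9 in 1. The capping protein gene Capza3 and the fascin gene Fscn3 had means of 3.47 and 3.56.

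The last group, 12 other testis genes, held the member that stood furthest above the guide. Txndc2, which encodes a thioredoxin of the sperm tail, was at 10.05, 10.03 and 10.11 in wildtype oocytes, against 10.10, 10.00 and 10.03 in mutant oocytes. The 6 values lay close together, and 0.0% of 1210 receptor probe sets had a mean as high. Its relative Txndc8 lay between 3.60 and 4.27, under the guide in every array.

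Iqcf1, a calmodulin-binding protein with an IQ motif, was at 7.52, 7.19 and 7.88 in wildtype oocytes, against 7.13, 7.06 and 6.73 in mutant oocytes. Every mutant sample was lower than every wildtype sample. Spata20 lay between 5.23 and 5.43, and its second probe set between 3.86 and 4.15, under the guide, so the 2 probe sets disagree on whether it passed. Tcp11 lay between 4.73 and 5.04 and Gsg1, a partner of a testis poly(A) polymerase, between 4.62 and 5.22, and both passed in all arrays.

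Oaz3, the antizyme of haploid germ cells that restrains polyamine synthesis, exceeded the guide in 4 arrays and swung between 4.32 and 4.89, with low values in wildtype 2 and mutant 3. Spata3, Spata18, Spata19, Klhl10 and Insl6 were under it throughout, with means from 3.24 to 3.97.

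**Figure D3:**
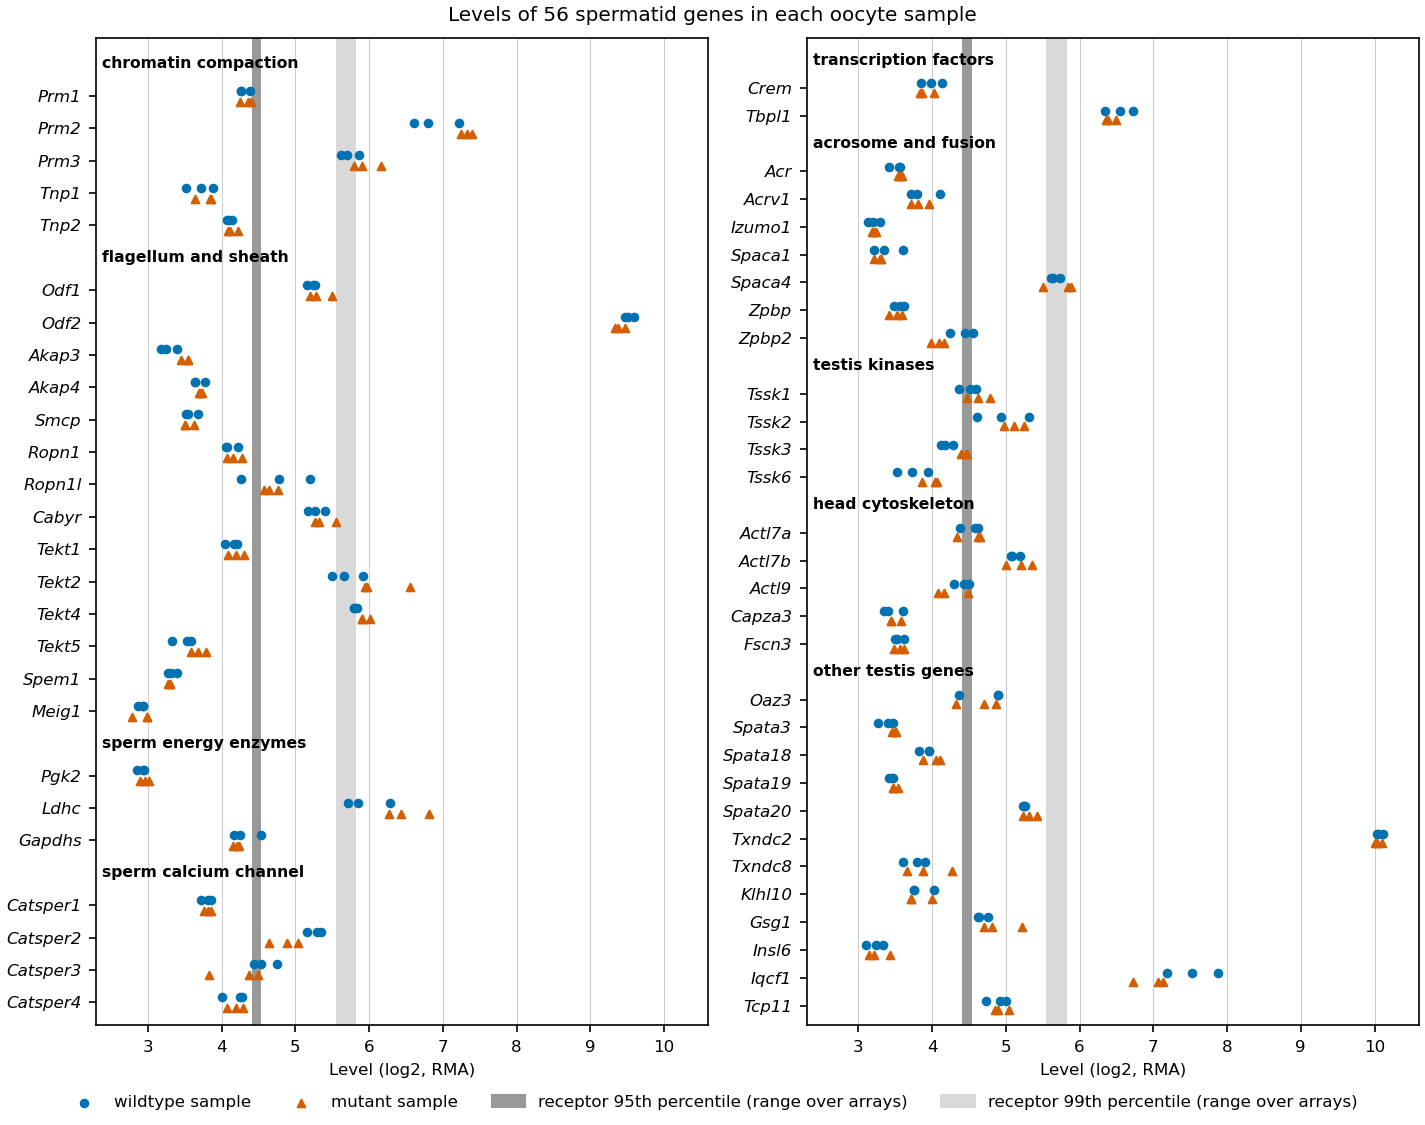
Log2 levels of the 56 genes by role, with 3 wildtype samples as blue circles and 3 mutant samples as orange triangles for each gene. The dark band is the range over arrays of the receptor 95th percentile and the light band that of the 99th percentile. Txndc2, Odf2, Iqcf1, Prm2 and Tbpl1 lie to the right of both bands in all samples, and most other genes lie on or to the left of the dark band.

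Loss of Brwd1 was followed by no called change in any spermatid gene. With limma over all 23410 probe sets with a symbol, 32 (0.137%) passed a Benjamini-Hochberg adjusted p of 0.05, and none of the 56 genes was among them. The smallest adjusted p of a member was 0.198 (limma), for Tssk3. The median difference of the 56 genes was 0.04, against 0.01 for all genes. Differences were positive in the mutant for 38 genes (67.9%) and negative for 18, where 53.5% of all genes were positive. This balance rests on the scaling. It was 31 to 25 after quantile normalization again, 30 to 26 after cyclic loess and 22 to 34 after median centring. Of all genes, 51.3%, 49.0% and 35.8% were positive under these scalings. For the 38 members not above the guide in all arrays the median difference was 0.02, and for all genes of that kind 0.03. For the 18 members above it, the median difference was 0.09, with 72.2% positive. All 11878 genes above the guide had -0.01 and 47.5%. Both comparisons use the deposited scaling alone and were not tested.

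Most measured differences were small. The absolute difference was under 0.25 for 47 of 56 genes, with a median of 0.08, against 0.09 for all genes. For Txndc2 the difference was -0.02 with a 95% interval of -0.16 to 0.12, for Odf2 -0.13 with an interval of -0.29 to 0.02 and for Tbpl1 -0.13 with an interval of -0.37 to 0.11. For genes at background, such as Prm1 at 0.03 (-0.13 to 0.19), Tnp1 at 0.07 (-0.18 to 0.33) and Crem at -0.07 (-0.29 to 0.14), the array compresses differences, and the interval bounds the measured values and not the RNA.

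**Figure D4:**
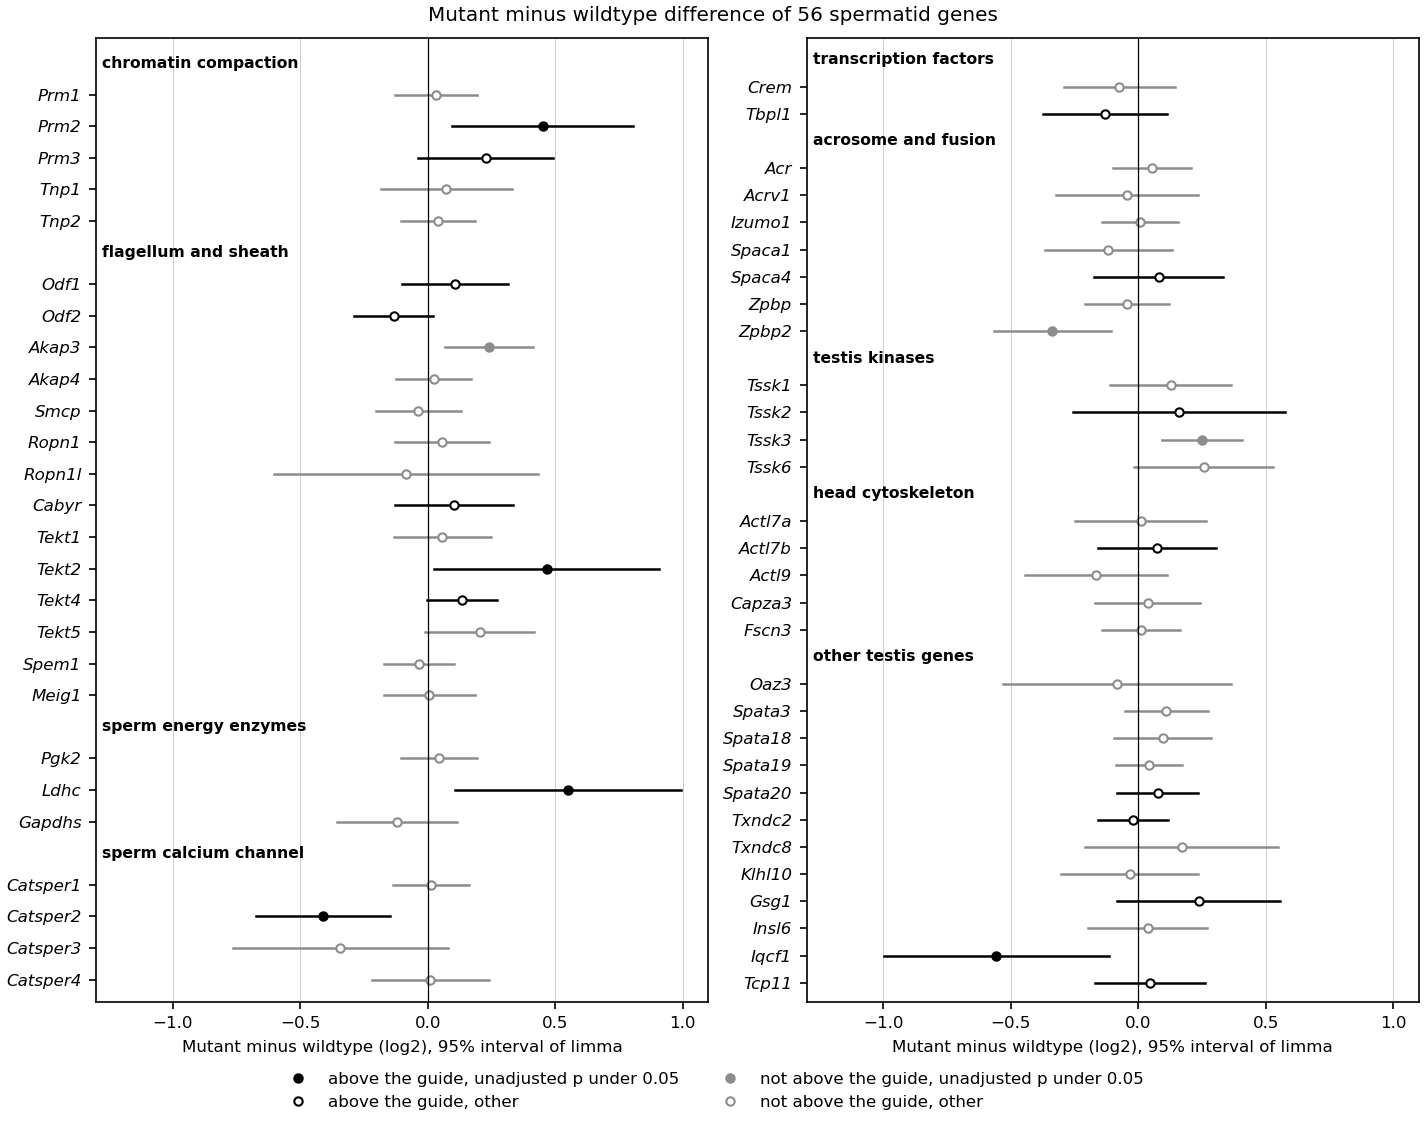
Mutant minus wildtype log2 difference of each of the 56 genes, with the 95% interval of the limma fit, by role. Black marks genes above the receptor guide in all 6 arrays and grey the others, and filled points have an unadjusted limma p under 0.05. The 8 filled points comprise 5 positive and 3 negative differences, between -0.56 for Iqcf1 and 0.55 for Ldhc.

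Without adjustment, 8 of 56 genes (14.3%) had a limma p under 0.05, close to the 14.9% of all 19938 genes. This share depends on level. It was 5 of 18 (27.8%) for members above the guide in all arrays, against 20.0% of all such genes. For the other 38 members it was 3 (7.89%), against 7.31%. Groups were fully apart with the mutant higher in 5 genes, Prm2, Akap3, Tekt2, Tekt4 and Tssk3, where 10.5% of all genes behaved so. They were apart with the mutant lower in 3 genes, Catsper2, Zpbp2 and Iqcf1, against 9.33% of all genes. The shares over all 56 genes are near or below those of all genes, and the values that follow describe single genes.

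The positive differences were 0.45 for Prm2 (SE 0.15), 0.55 for Ldhc (SE 0.19) and 0.47 for Tekt2 (SE 0.19) among genes above the guide. The limma adjusted p-values were 0.259, 0.263 and 0.314. Without wildtype 3, the array that lay away from the rest, the difference of Prm2 was 0.62 (limma adjusted p = 0.0794). Over the 6 omissions of an array it was between 0.32 and 0.62, with an unadjusted limma p under 0.05 in 2 of them. Without mutant 3, Tekt2 was at 0.27 and Ldhc at 0.40, and each kept an unadjusted limma p under 0.05 in 3 of 6 omissions. Ldhc did not keep it without wildtype 3. Akap3 at 0.24 and Tssk3 at 0.25 lay under the guide in all arrays (limma adjusted p = 0.227 and 0.198).

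The negative differences were -0.56 for Iqcf1 (SE 0.19), -0.41 for Catsper2 (SE 0.11) and -0.34 for Zpbp2 (SE 0.10). The limma adjusted p-values were 0.259, 0.201 and 0.216. For Catsper2 and Zpbp2 the unadjusted limma p stayed under 0.05 in each of the 6 omissions, with differences of -0.50 to -0.30 and -0.43 to -0.27. For Iqcf1 it did so in 4 of 6, with differences of -0.73 to -0.38, and did not without wildtype 3 or without mutant 3. Of the 3 other channel genes, Catsper3 was at -0.34 (limma adjusted p = 0.421), Catsper1 at 0.01 and Catsper4 at 0.01. Catsper1 and Catsper4 lay under the guide in every array, where differences are compressed, so their values cannot show whether they followed Catsper2.

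**Figure D5:**
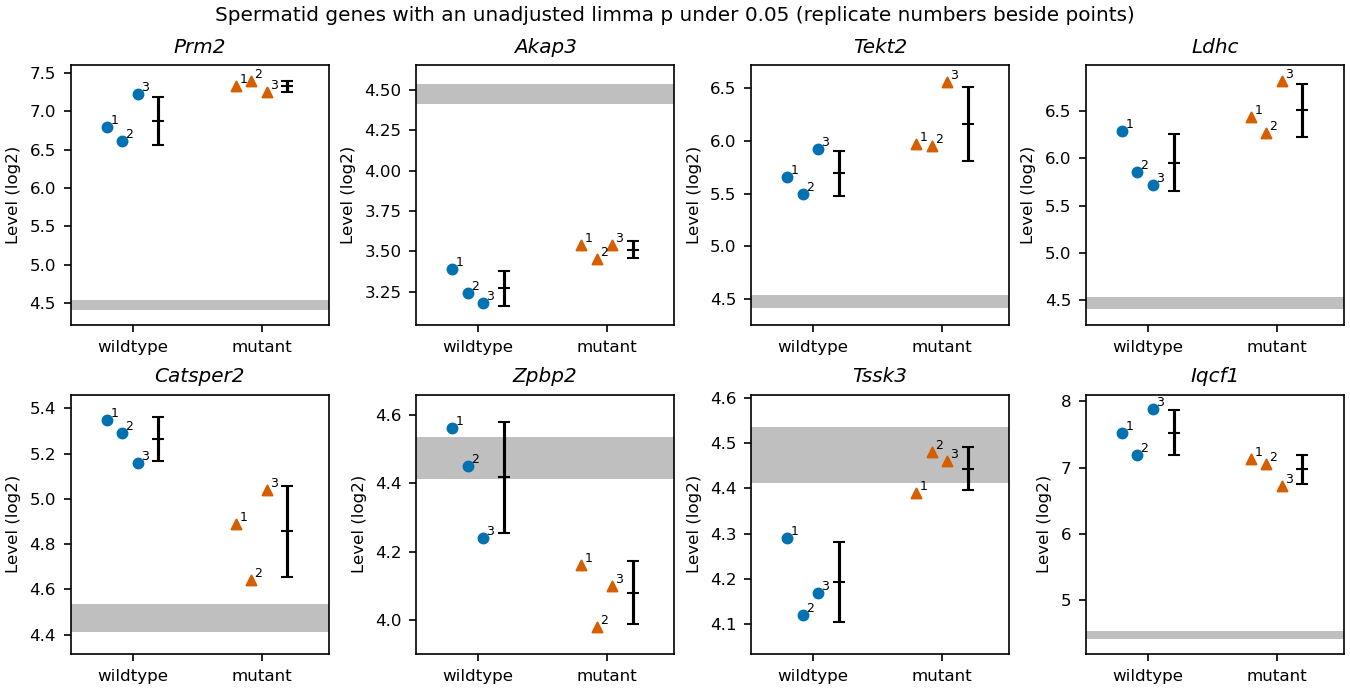
Levels of the 8 spermatid genes with an unadjusted limma p under 0.05, one panel each, with its own vertical scale in log2 units. Points are samples with their replicate numbers, bars are the mean and SD of 3 samples, and the grey band is the receptor 95th percentile. Akap3, Zpbp2 and Tssk3 lie under or around the band, while Prm2, Tekt2, Ldhc, Catsper2 and Iqcf1 lie above it in all 6 samples.

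A second list of spermatid genes, none of them among the 56, gave a like picture. Of its 56 measured genes, 11 (19.6%) exceeded the guide in all arrays and none passed the adjusted test (smallest limma adjusted p = 0.122). Among those above the guide were the tubulin gene Tuba3a at 9.73, Agfg1, a vesicle protein, at 9.17 and Hook1, a microtubule linker, at 8.82 to 9.16. Ppp3cc, the testis form of the calcineurin catalytic subunit, was at 7.49, 7.52 and 7.33 in wildtype oocytes, against 7.08, 7.05 and 6.98 in mutant oocytes, a difference of -0.41 (limma adjusted p = 0.122). Pdha2, the testis form of a pyruvate dehydrogenase subunit, differed by -0.49 at levels under the guide (limma adjusted p = 0.136). The median difference of this second list was 0.03, with 34 genes positive (60.7%) and 22 negative, where 53.5% of all genes were positive.

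The regulators had a median difference of 0.08, and 0 of 25 passed the adjusted test. Fhl5 was at 0.50, Piwil1, a piRNA-binding protein of spermatids, at 0.17 and Celf1, an RNA-binding protein, at 0.15 (limma adjusted p = 0.252, 0.330 and 0.285). At an unadjusted limma p under 0.05 the counts were 3 of 25 regulators and 6 of 56 genes of the second list. Both shares were below the 14.9% of all 19938 genes.

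Markers of other cells that an oocyte pool could hold were compared with the same guide. It was exceeded in all arrays by 7 of 18 granulosa and cumulus markers, 2 of 13 of theca and stroma and 6 of 12 of blood, immune and endothelial cells. Their mean levels in the wildtype samples were 4.97 to 5.01, 4.04 to 4.10 and 4.79 to 4.86, and in the mutant samples 5.00 to 5.06, 4.08 to 4.17 and 4.95 to 5.05. The mean over the blood, immune and endothelial list was thus higher in every mutant sample. By gene, though, the groups were apart with the mutant higher in 2 of 12, C1qb and Cd3e, where 10.5% of all genes behaved so. C1qb, a complement gene of macrophages, had the widest difference of the list, at 0.90 (limma adjusted p = 0.162), and the T cell gene Cd3e was at 0.18. Cd68, a macrophage gene, was at -0.07. C1qb, Cd3e, Cd68, Alas2, Pecam1 and Tek exceeded the guide in all 6 arrays and C1qa in 5. Ptprc and Csf1r, which mark leukocytes and macrophages, did so in 0, as did Lyz2 and Itgam. Pecam1 lay between 7.57 and 8.08 and Tek between 6.41 and 6.93, both with overlapping groups. The granulosa and cumulus markers with the smallest p-values were Gata4 at 0.29, Ptgs2 at -0.57 and Has2 at 0.49. Of these 18 markers, the groups were apart with the mutant higher in 2 and lower in 1. An unadjusted limma p under 0.05 was found for 4 of the 18 (22.2%), 3 higher and 1 lower in the mutant. None of these lists held a gene that passed the adjusted test, and their part in the spermatid values was not tested.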

How the data were processed

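The authors' deposited table holds log2 values of 35556 probe sets, made with Affymetrix Expression Console 1.1 and RMA, per the submitters' processing notes. Per the labels' protocols, 1 ng of total RNA per pool was amplified, labelled with biotin and hybridised, 1 array per sample. RMA makes array distributions alike, so a change in total RNA per oocyte cannot be seen, and it compresses differences near background. Arrays have no read depth, and their number, 3 per group, limits the precision.

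The array annotation gave 1 symbol for 21789 probe sets, several for 1621 and none for 12146. Of these, the 23410 with a symbol were tested, and genes were named from single-symbol probe sets. The Entrez identifiers of all 56 genes were found in RefSeq (GRCm38.p6) under the same symbols. No genome build is stated for the array annotation, so coordinates are those of RefSeq alone.

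Mutant minus wildtype was fitted by lmFit and eBayes of limma 3.58.1 under R 4.3.3 (all 6 arrays, no covariate, two-sided, Benjamini-Hochberg over 23410 probe sets, threshold 0.05). The fit was tested on simulated data. Lists are described by counts and medians. The members and lists were chosen with earlier results of these data known. Genes named are the protamine and transition protein genes, members above the guide, members with an unadjusted p under 0.05, up to 3 members nearest to the guide on each side, and up to 3 genes per list with the smallest p-values and 3 with the highest levels, not all of which are printed. Other members are given by role. Dnah5, Dnah9, Drc1, Tppp3 and Cfap52 were named because they passed the guide. Foxj1, Ptprc, Csf1r, Cd3e, Cd68, C1qa, Alas2, Cdh5, Lyz2 and Itgam were added as markers of other cells after their values were seen. Of these, Cd3e and C1qa are also among the smallest p-values of their list. Alternatives were other normalizations, a replicate block, array weights, eBayes with trend, filters, other guides and leaving out each array. Replicate numbers did not pair the samples.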

Additional observations from a re-analysis of the deposited data

How the results depend on the processing

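In each alternative run, 0 of the 56 genes passed the adjusted test, and the smallest limma adjusted p of a member was 0.0794, for Prm2 without wildtype 3. The count of probe sets called over the whole table, 32, was 76 with eBayes trend and robust and 1 with all probe sets of the table. It was 1 with the replicate block, where deviations of same-numbered samples had correlations of -0.03 to 0.04, and 1 to 18 without 1 array. Omitting wildtype 1, wildtype 2 or mutant 1 each gave 1, omitting mutant 2 gave 3, omitting mutant 3 gave 10 and omitting wildtype 3 gave 18. The cause was not tested. The replicate block changed no sign among the 56 genes.

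The median difference of the members was -0.018 after median centring, against 0.038, a step that moved the median of all genes to -0.04. It was 0.01 after cyclic loess or quantile normalization again. The count above the guide was 5 at the 99th percentile of receptors, 28 at the 90th percentile and 5 at the 95th percentile of genes of other tissues, against 18, and 18 to 19 when 1 array was left out. No sign changed among the 8 genes with an unadjusted p under 0.05 in these alternatives. After median centring, 6 of the 8 kept an unadjusted limma p under 0.05, and Akap3 and Tekt2 did not. When 1 array was left out, 5 to 7 of the 8 kept it. Near background, where 38 members lie, the arrays limit what difference can be measured.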
